A study of Mus musculus with 3 samples.

Results

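This is an account of imprinted genes in the cells of the mouse fetal ovary at E12.5 (in days of embryonic development). The members are 10 genes chosen by name: Igf2, Igf2r, Grb10, Plagl1, Dlk1, Mest, Peg3, Peg10, H19 and Meg3. Of these, 8 had a row in the count tables, among 18738 genes listed in all, and the noncoding RNAs H19 and Meg3 were not analysed here. UMI counts (counts of distinct captured transcripts) of each member were summed per cell class and lot and expressed as CPM (counts scaled to the same total of UMIs in every sum) and as the share of cells with at least 1 UMI.

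The samples were 3 frozen lots (26, 29 and 30) of fetal ovarian somatic cells from CD1 mice, an outbred stock, with no treatment or mutation. Each lot pooled the ovaries of embryos from 10 pregnant females, cut free of the mesonephros (the embryonic kidney beside the gonad) and depleted of germ cells by magnetic sorting with antibodies to SSEA1 and CD31, the latter also a marker of endothelial cells. The thawed cells were profiled by droplet single-cell RNA sequencing of transcript 3′ ends. The germ and endothelial cells described here are those present after that step, and the lot, not the cell or the embryo, is the replicate.

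Imprinted genes are transcribed mainly from the copy inherited from one parent, because DNA methylation laid down in the egg or sperm marks the parental copies differently. Many of them set fetal and placental growth, and several act on the insulin-like growth factor pathway. In primordial germ cells these marks are erased, and they are laid down anew later, according to the sex of the embryo. UMI counts do not tell the parental copies apart, so all values below are totals over both.

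Of 29103 barcodes, 28971 passed the filters (200 to 9000 genes and at most 10% mitochondrial UMIs), and the lots held 9711, 8553 and 10707 of them with medians of 11126, 8949 and 11595 UMIs. Cells were clustered with the imprinted genes held out, and clusters were named from marker lists: 11960 cells were pre-granulosa-like, 6402 stromal-like, 6014 epithelial-like, 1471 germ-like and 349 endothelial-like. The 8 germ cell markers (Ddx4, Dazl and others) summed to 3192 CPM in germ-like cells and to 20.5 CPM in epithelial-like cells. Germ-like cells were the deepest, with medians of 18134 to 23767 UMIs against 7853 to 10120 in stromal-like cells. A total of 3 clusters (2053 cells) stayed unnamed and, with 388 cells carrying Sertoli cell (testis) markers, entered no test. Of the barcodes, 20, 19 and 30 were shared between pairs of lots.

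Promoter sequences of some members are shown first, since imprinting marks are methylated CpG pairs. Methylation was not measured, and whether these windows hold imprinting marks was not examined. RefSeq promoter windows (GRCm38.p6, 250 bases before to 50 after a transcription start) were found for 8 of the 10 members, and the 4 members with a single window are printed 5′ to 3′ on the strand of the gene, with every CG pair (which reads the same on both strands) in capitals. The Plagl1 window (chr10:13090582-13090881, plus strand) held 26 CG pairs, a number reached by 16.9% of 32851 windows. The Igf2r window (chr17:12769657-12769956, minus strand) held 34, a number reached by 7.73% of windows. The Peg3 window (chr7:6730370-6730669, minus strand) held 13 and the Dlk1 window (chr12:109452573-109452872, plus strand) 9, reached by 37.9% and 45.8% of windows. The median over all windows was 7.
Plagl1: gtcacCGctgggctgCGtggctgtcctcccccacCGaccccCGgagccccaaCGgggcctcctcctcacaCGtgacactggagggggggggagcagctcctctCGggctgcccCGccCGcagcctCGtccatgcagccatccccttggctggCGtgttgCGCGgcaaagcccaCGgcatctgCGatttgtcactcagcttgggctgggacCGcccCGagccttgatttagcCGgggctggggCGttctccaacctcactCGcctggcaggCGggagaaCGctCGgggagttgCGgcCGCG
Igf2r: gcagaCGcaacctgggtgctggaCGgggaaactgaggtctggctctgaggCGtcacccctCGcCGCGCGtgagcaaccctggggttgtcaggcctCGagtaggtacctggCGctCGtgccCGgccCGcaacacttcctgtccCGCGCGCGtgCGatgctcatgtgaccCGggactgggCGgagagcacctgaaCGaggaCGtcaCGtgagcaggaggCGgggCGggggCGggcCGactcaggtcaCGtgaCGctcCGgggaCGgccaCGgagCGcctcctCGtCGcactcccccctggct
Peg3: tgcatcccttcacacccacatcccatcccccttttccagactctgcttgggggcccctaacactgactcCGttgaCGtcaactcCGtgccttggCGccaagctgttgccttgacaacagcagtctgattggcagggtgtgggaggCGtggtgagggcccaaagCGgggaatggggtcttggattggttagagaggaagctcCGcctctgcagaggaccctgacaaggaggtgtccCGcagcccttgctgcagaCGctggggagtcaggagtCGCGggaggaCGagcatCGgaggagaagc
Dlk1: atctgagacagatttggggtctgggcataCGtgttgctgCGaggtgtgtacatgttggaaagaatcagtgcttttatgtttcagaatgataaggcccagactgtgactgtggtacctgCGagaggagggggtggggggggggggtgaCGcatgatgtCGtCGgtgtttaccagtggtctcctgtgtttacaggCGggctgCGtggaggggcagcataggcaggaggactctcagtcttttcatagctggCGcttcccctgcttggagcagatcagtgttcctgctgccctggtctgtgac

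Germ-like cells were compared with the mean of the 3 large somatic classes, taken over their log levels. All 8 members passed the filter on low counts, and 7 were lower in germ-like cells while none was higher. In this comparison 76.7% of the 13826 genes tested were called, 40.3% as lower and 36.4% as higher. The median log2 fold change was -2.39 over the members and -0.07 over all genes tested. The median over all genes moved from -0.07 to 0.04 with another scaling (RLE size factors), which left the same number of members called.

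Igf2, a paternally expressed growth factor of the fetus (chr7:142650766-142666816), was at 72.9, 45.3 and 62.6 CPM in germ-like cells of lots 26, 29 and 30. It was at 334, 360 and 302 CPM in pre-granulosa-like, 336, 341 and 292 CPM in epithelial-like and 372, 399 and 328 CPM in stromal-like cells. The germ-like values lay below every somatic value, and the somatic classes overlapped each other. The log2 fold change was -2.54 ± 0.16 (SE, adjusted p = 1.19e-13, edgeR quasi-likelihood test with Benjamini-Hochberg adjustment, as for all adjusted p below). After each cell was thinned to 4000 UMIs, 19.3% ± 6.4 of germ-like cells had an Igf2 UMI (SD, n = 3 lots), against 69.0% ± 2.8 of pre-granulosa-like cells. The unthinned shares were 56.7% and 91.4%. In red-blood-cell-like cells the thinned share was 20.3%, which is no background level for germ-like cells. Red blood cell markers took up 577515 to 821639 CPM there over the lots, which lowers the thinned share of every other gene. Transcripts of somatic marker genes were also found in those cells.

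Igf2r, the maternally expressed receptor that clears IGF2 (chr17:12682406-12769664), was the member that differed least among those called. It was at 70.5, 50.7 and 65.0 CPM in germ-like cells, 156, 122 and 142 CPM in stromal-like cells and 82.4, 69.5 and 71.7 CPM in the pre-granulosa-like class. Germ-like and pre-granulosa-like values overlapped, and the stromal-like values lay above both. Relative to the somatic mean its log2 fold change was -0.67 ± 0.15 (adjusted p = 0.000205, edgeR). The gene overlaps the antisense RNA Airn over 28354 bases, a part of its length. Since the strand setting of the counting is not given in the sources used here, reads of the 2 within that overlap cannot be told apart. The same holds for Igf2 and Igf2os, which overlap over 7124 bases. Igf2 also overlaps the protein-coding gene Gm49394, on the same strand and without a row in the count tables, over 16048 bases.

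Grb10, an adaptor protein that dampens insulin and IGF receptor signals and is maternally expressed in most tissues (chr11:11930508-12038683), was at 36.9, 23.5 and 36.8 CPM in germ-like cells. The lowest somatic values were the 93.9, 104 and 107 CPM of pre-granulosa-like cells, and stromal-like cells held 297, 303 and 301 CPM. No germ-like value reached a somatic one, and the log2 fold change was -2.56 ± 0.15 (adjusted p = 5.02e-14, edgeR).

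Plagl1, a paternally expressed zinc finger transcription factor that restrains growth (chr10:13060504-13131694), was the exception. It was at 22.5, 21.6 and 21.4 CPM in germ-like cells, 8.05, 6.51 and 9.83 CPM in the pre-granulosa-like class, 26.8, 16.3 and 20.4 CPM in epithelial-like cells and 101, 79.7 and 88.9 CPM in stromal-like cells. Germ-like values thus lay above all pre-granulosa-like values, within the epithelial-like range and below the stromal-like range. The comparison with the mean of the somatic classes gave a log2 fold change of -0.24 ± 0.19 that did not pass the test (adjusted p = 0.26, edgeR, 0.0543 to 0.795 over 15 alternatives). That mean is taken over log levels and lies below the mean CPM of classes that differ this much. A comparison with the mean CPM was not run.

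The other 4 members are paternally expressed. Dlk1, a transmembrane relative of the Notch ligands (chr12:109452823-109463336), was at 44.7, 26.5 and 32.8 CPM in germ-like cells. These values overlapped the 41.96, 44.7 and 43.5 CPM of pre-granulosa-like cells and lay below the 374, 302 and 305 CPM of stromal-like cells (log2 fold change against the somatic mean -2.24 ± 0.19, adjusted p = 3.77e-11, edgeR). Mest, which encodes a hydrolase-like enzyme of mesodermal tissues (chr6:30723547-30748465), was at 80.0, 46.9 and 77.2 CPM in germ-like cells and at 343 CPM or more in every somatic sum (log2 fold change -2.68 ± 0.24, adjusted p = 1.06e-10, edgeR). Both genes were thus low in germ-like cells, and Dlk1 was as low in 1 somatic class.

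Peg3, a zinc finger protein (chr7:6703892-6730431), was at 359, 267 and 407 CPM in germ-like cells. The somatic sums ranged from 1194 CPM (epithelial-like, lot 29) to 1817 CPM (pre-granulosa-like, lot 30), so the groups did not overlap (log2 fold change -2.11 ± 0.22, adjusted p = 3.51e-09, edgeR). Peg10, which derives from a retrotransposon and is needed for the placenta (chr6:4747306-4760517), was at 18.03, 8.18 and 19.3 CPM in germ-like cells and at 77.3 CPM or more in every somatic sum (log2 fold change -2.92 ± 0.21, adjusted p = 1.89e-12, edgeR). It had the lowest germ-like level of the members relative to the somatic classes.

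**Figure D1:**
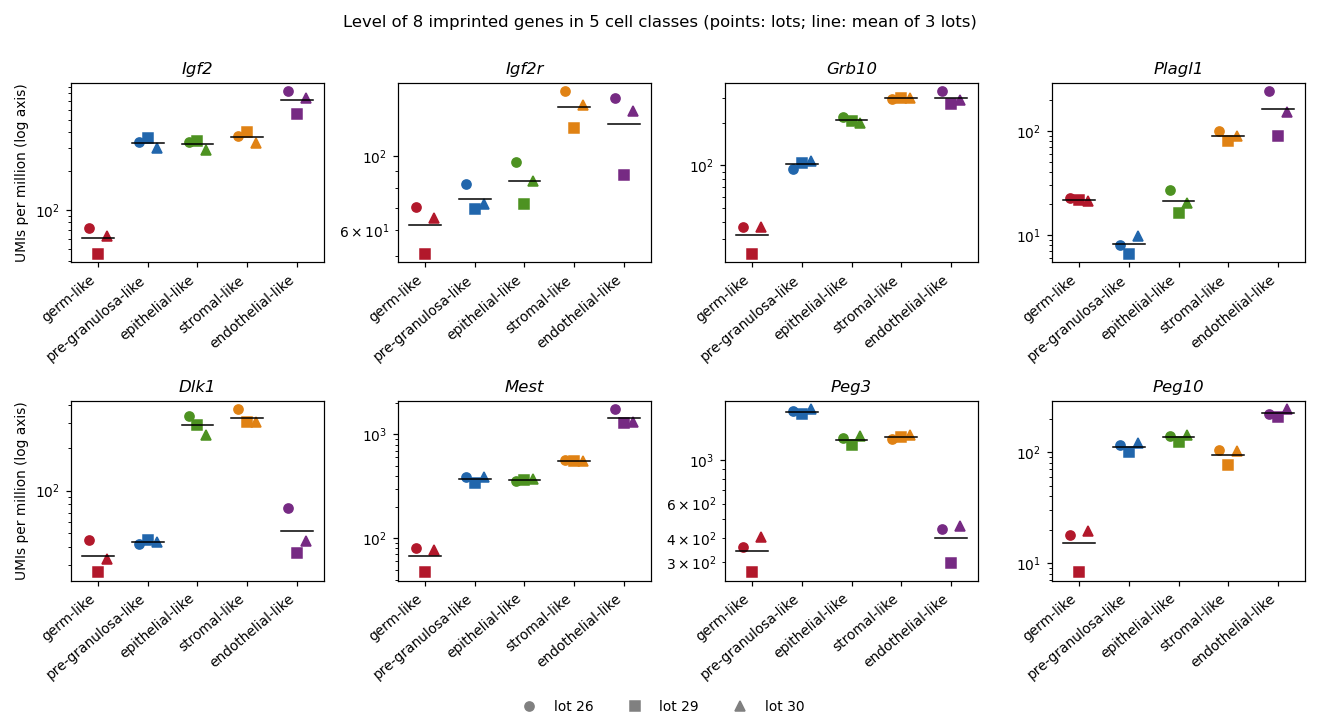
Each panel plots 1 member; the y axis is CPM on a log axis, points are the 3 lots and the black line is their mean, for 5 cell classes. Germ-like points lie below all points of the 3 somatic classes for Igf2, Grb10, Mest, Peg3 and Peg10, whereas Plagl1 is higher in germ-like than in pre-granulosa-like cells, and Dlk1 has means of 34.7 and 43.4 CPM in these classes.

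Transcripts of somatic genes were also found in germ-like cells. The median share of their own class's level was 7.61% for the 8 pre-granulosa markers (4.51% to 9.54% over lots), 5.95% for the 8 epithelial markers and 4.4% for the 8 stromal markers. The epithelial markers were uneven, with Msln at 45.7%, Lrrn4 at 27.9%, Krt18 at 23.1% and the others at 2.84% to 7.32% of their mean epithelial-like level. The red blood cell list summed to 91.5 to 1872 CPM in germ-like cells of the 3 lots, against 85.7 to 239 CPM in epithelial-like cells. The part of these transcripts in the levels of the members was not tested. A carry-over level, a calculation chosen after seeing the data, was computed for each member and lot: the 3 somatic levels, each weighted by the share of that class that its markers give, solved jointly because each class also holds some of the other classes' markers. The shares added up to 13.9% (8.52% to 17.3% over lots).

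The members differed in their ratio to this level. Igf2 was at 60.3 ± 14.0 CPM (SD, n = 3) in germ-like cells with a carry-over level of 45.9 CPM, a ratio of 1.33 (1.197 to 1.46 over lots). The ratio was 1.36 for Dlk1, 1.32 for Grb10, 1.22 for Mest and 0.92 for Peg10, and 1.73 for Peg3 (1.51 to 2.15). In contrast, Plagl1 was at 21.8 ± 0.61 CPM with a carry-over level of 4.33 CPM, a ratio of 5.86 (4.01 to 9.32), and Igf2r at 62.1 ± 10.2 CPM with a level of 13.03 CPM, a ratio of 5.21 (4.18 to 7.18). Only these 2 members stood more than 2 times over the level in every lot, and the share of all genes that do so was not computed. Summing the 3 marker shares in place of solving them jointly gave ratios of 1.03 for Igf2, 1.04 for Dlk1, 1.01 for Grb10 and 0.94 for Mest.

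**Figure D2:**
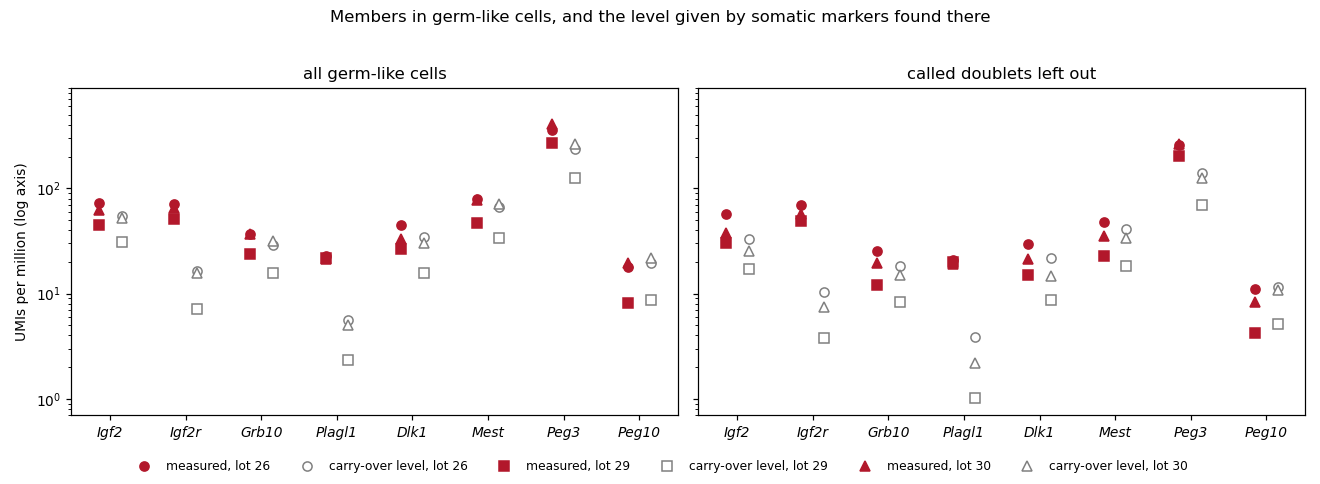
The y axis is CPM on a log axis for each member in germ-like cells; filled red symbols are measured levels and open grey symbols carry-over levels in the same lot, for all germ-like cells on the left and without cells called doublets on the right. Red and grey symbols lie close together for Igf2, Grb10, Dlk1, Mest and Peg10, and apart for Plagl1 and Igf2r. Peg3 lies between, with a mean ratio of 1.73 in all germ-like cells.

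Called doublets moved with these levels. Scrublet called 16.8%, 9.2% and 16.6% of germ-like cells of lots 26, 29 and 30 doublets, against 0.42% to 2.44% of pre-granulosa-like and 5.93% to 13.01% of stromal-like cells. Without them the 3 marker shares added up to 7.57%. Mest fell from 68.0 to 35.5 CPM in germ-like cells, Peg10 from 15.2 to 7.86, Grb10 from 32.4 to 18.9 and Dlk1 from 34.7 to 21.9, whereas Igf2r went from 62.1 to 58.5 and Plagl1 from 21.8 to 19.9 CPM. The log2 fold changes against the somatic classes became -3.54 for Mest, -3.74 for Peg10, -3.27 for Grb10 and -2.84 for Dlk1. The ratio to the carry-over level was then 1.16 for Mest, 0.85 for Peg10, 1.63 for Igf2, 2.28 for Peg3, 9.19 for Igf2r and 11.2 for Plagl1.

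Germ-like cells were also ranked within each lot by their UMIs of the 24 somatic markers. This ranking selects cells for somatic transcripts, so a rise of genes that are high in somatic cells is built into it. In the 367 cells with the fewest, Igf2 was at 37.4 ± 7.9 CPM (SD, n = 3), and in the same number of cells with the most at 125 ± 33. Peg10 went from 4.32 to 38.9 CPM between these sets of cells, Mest from 27.2 to 173, Grb10 from 15.4 to 77.5 and Dlk1 from 18.1 to 76.8. Igf2r went from 57.7 to 75.7 CPM and Plagl1 from 15.7 to 30.3, the smallest differences among the 8 members. The lowest Igf2 CPM of the upper set (89.3) lay above the highest of the lower set (45.4). For Igf2r the ranges of the lots overlapped (46.3 to 65.0 and 58.6 to 87.4). The 24 markers themselves went from 196, 103 and 169 CPM to 2008, 1036 and 1592 CPM in lots 26, 29 and 30. The upper mean was 1.31 times the lower for Igf2r, 1.94 for Plagl1, 3.23 for Peg3, 3.35 for Igf2 and 9.01 for Peg10. The part of somatic transcripts in these differences was not tested.

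Germ-like cells were also split, after thinning, by a UMI of Stra8, a gene induced at the start of meiosis. Peg3 was at 326, 237 and 381 CPM in lots 26, 29 and 30 in the 1089 cells with one and at 467, 327 and 488 CPM in the 373 without. Mest was at 74.2, 38.6 and 66.7 CPM against 99.2, 63.8 and 109 CPM, and Grb10 at 34.4, 22.5 and 34.9 against 45.2, 25.7 and 42.95 CPM. These 3 members were higher in cells without Stra8 in each lot, and Igf2r was lower in each (71.5, 51.3 and 65.9 CPM with, 66.8, 49.2 and 62.1 CPM without). For the other 4 the direction differed between lots. These differences were not tested.

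Other imprinted genes were taken from a list of 44, of which 38 had a row and 33 passed the filter. In germ-like cells 9 of the 33 were higher and 16 lower than in the somatic classes, with a median log2 fold change of -0.50, where 36.4% of all genes were higher and 40.3% lower. The genes that were higher by the most lie beside genes that were lower, on distal chromosome 7. Phlda2, a maternally expressed brake on placental growth (chr7:143501545-143503150), was at 316 ± 15.2 CPM in germ-like cells and at 8.74, 5.89 and 4.86 CPM in pre-granulosa-like, epithelial-like and stromal-like cells (SD, n = 3; log2 fold change 5.60 ± 0.13, adjusted p = 6.34e-22, edgeR). Slc22a18, a maternally expressed transporter (chr7:143473736-143499334), was at 31.997 CPM in germ-like cells and at 0.81 CPM or less in each of the 3 (log2 fold change 5.73), and Ascl2, a transcription factor of the trophoblast (chr7:142966829-142969264), at 10.3 and at 0.66 CPM or less (log2 fold change 4.65).

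Their neighbour Cdkn1c, a maternally expressed inhibitor of cell division (chr7:143458339-143461050), was lower instead. It was at 381 ± 73.2 CPM in germ-like cells against 3151, 1518 and 1358 CPM in pre-granulosa-like, epithelial-like and stromal-like cells (log2 fold change -2.34 ± 0.24, adjusted p = 2.58e-09, edgeR), with a carry-over level of 302 CPM. The largest negative log2 fold changes were those of Nnat (-2.82), Sgce (-2.77) and Zim1 (-2.43), whose ratios to their carry-over levels were 1.11, 0.91 and 1.16. Of the 38 genes, 22 stood more than 2 times over that level in every lot. The number was 20 with the marker shares summed and 27 without called doublets. Germ-like levels of the 22 went down to 0.39 CPM, where the ratio rests on few UMIs. The share of all genes over their carry-over level was not computed, so the count has no background.

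The neighbours of the members did not all go with them. Sgce, which starts beside Peg10 on chromosome 6, and Zim1 and Usp29 (log2 fold change -1.85), which flank Peg3, were lower in germ-like cells as the members were. Copg2, which overlaps Mest tail to tail over 912 bases, was higher, at 71.9 CPM against 28.1 to 31.7 CPM (log2 fold change 1.198 ± 0.09, adjusted p = 9.81e-12, edgeR). The 2 genes lie on opposite strands, and with the strand setting not given, reads in their overlap cannot be told apart. The part of such reads in the Copg2 and Mest levels was not tested. Ddc and Cobl, on either side of Grb10, were higher too (log2 fold changes 2.23 and 2.64). Copg2, Ddc and Usp29 were named for their position after their values were seen.

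**Figure D3:**
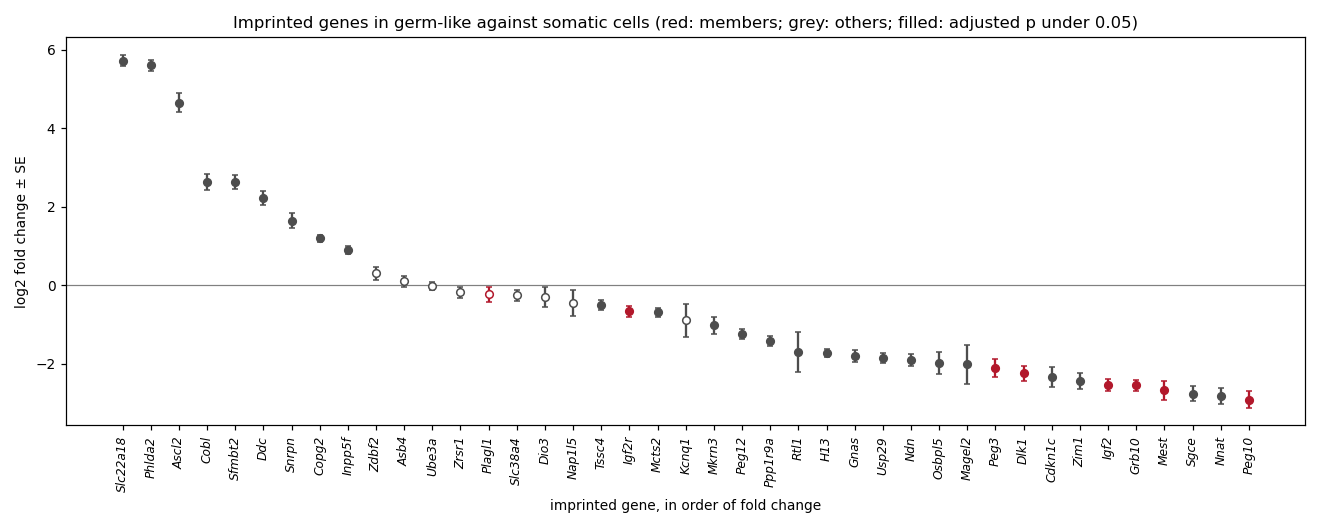
The y axis is the log2 fold change of germ-like against somatic cells with its standard error, for the 41 imprinted genes tested in order of that value; red symbols are the 8 members, grey symbols the others, and filled symbols passed the test. Slc22a18, Phlda2 and Ascl2 stand apart at 4.65 to 5.73, and 7 members lie below 0 with filled symbols.

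The 3 somatic classes were then compared with each other. Pre-granulosa cells support the germ cells, stromal cells form the interstitium and epithelial cells cover the ovary. Dlk1, Plagl1 and Grb10 separated the pre-granulosa-like cells, at 43.4, 8.13 and 102 CPM, from the stromal-like cells, at 327, 89.8 and 300.1 CPM. Igf2 did not differ detectably among the 3 classes, whose means were 332, 323 and 366 CPM.

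Between pre-granulosa-like and stromal-like cells, 4 members were lower in the former and none higher, where 48.7% of all genes were called (24.7% higher, 24% lower). The log2 fold changes were -3.34 ± 0.23 for Plagl1, -2.80 ± 0.21 for Dlk1, -1.45 ± 0.16 for Grb10 and -0.80 ± 0.17 for Igf2r (adjusted p = 2.96e-12, 1.12e-11, 1.43e-08 and 0.000274, edgeR). The median was -0.64 over the members and 0.00 over all genes. With the lot as a block, 7 members were called: Peg3 (log2 fold change 0.54, adjusted p = 0.00139, against 0.0627 without the block, edgeR) and Peg10 (0.37, adjusted p = 0.00284) were then higher in pre-granulosa-like cells, and Mest (-0.47, adjusted p = 0.00284) lower. Stromal markers were at 3.56% of their stromal level in pre-granulosa-like cells and epithelial markers at 10.9% of their epithelial level. Stromal-like cells held 14.7% of the pre-granulosa and 10.9% of the epithelial marker level, and epithelial-like cells 23.5% of the pre-granulosa and 24.3% of the stromal marker level. The part of this mixing in the differences between somatic classes was not tested.

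Between pre-granulosa-like and epithelial-like cells, Dlk1 (-2.72 ± 0.21), Plagl1 (-1.34 ± 0.22) and Grb10 (-1.01 ± 0.15) were lower in the former (adjusted p = 3.69e-11, 1.71e-05 and 6.04e-06, edgeR) and no member was higher. Here 44.7% of all genes were called (22.8% higher, 21.9% lower), and the median log2 fold change was -0.20 over the members and 0.01 over all genes. With the lot as a block, Peg3 (0.50, adjusted p = 0.00278) and Peg10 (-0.26, adjusted p = 0.0303, edgeR) were called too, 5 members in all.

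Between epithelial-like and stromal-like cells, 30.7% of all genes were called (14.6% higher, 16.1% lower), and 4 of the 8 members. Plagl1 (-2.00 ± 0.22, adjusted p = 3.58e-08), Igf2r (-0.65 ± 0.17, adjusted p = 0.00359) and Grb10 (-0.44 ± 0.15, adjusted p = 0.0303, edgeR) were lower in epithelial-like cells. Peg10 was at 141, 125 and 144 CPM in epithelial-like and 105, 77.3 and 102 CPM in stromal-like cells, which do not overlap (0.62 ± 0.20, adjusted p = 0.0199, edgeR). That call was lost with RLE size factors (adjusted p = 0.0504), with library totals (adjusted p = 0.0611), with DESeq2 (adjusted p = 0.0990) and without lot 26 or lot 30. Grb10 was also not called without lot 26 or lot 30, and Igf2r not without lot 30. With the lot as a block Mest was called as well (-0.53, adjusted p = 0.00159, edgeR).

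**Figure D4:**
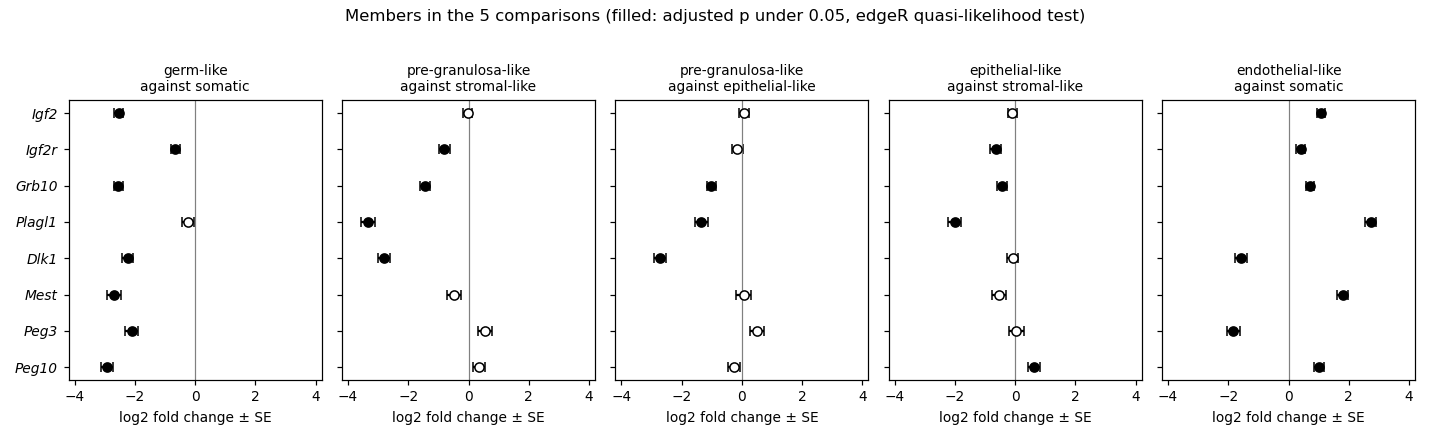
Each panel plots the log2 fold change and its standard error on the x axis for the 8 members in 1 comparison, with filled symbols where the adjusted p of the edgeR quasi-likelihood test was under 0.05. In the germ-like panel 7 symbols are filled and left of 0, in the endothelial-like panel 6 lie right and 2 left, and Igf2 is at -0.09 to 0.06 in the 3 comparisons between somatic classes.

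Within the somatic classes the members varied by cluster. In the 4 stromal-like clusters Plagl1 ran from 47.0 CPM (cluster 2) over 78.3 and 162 to 248 CPM (cluster 10, led by the matrix genes Lum and Dcn). Dlk1 ran from 207 to 726 CPM and Igf2 from 287 to 752 CPM between the same clusters. Peg10 ran the other way, from 118 CPM in cluster 2 to 43.1 CPM in cluster 10. Mest varied least, from 542 to 649 CPM. None of the 10 leading genes of cluster 2 is a stromal marker and 1 is on the list of another class, though the cluster makes up 2896 of the 6402 stromal-like cells. With that cluster left unnamed, a choice made after seeing the data, Peg10 (log2 fold change 0.73, adjusted p = 0.00286) and Peg3 (0.65, adjusted p = 0.0218, edgeR) were higher in pre-granulosa-like than in stromal-like cells, 6 members being called in all. The number called was then 7 in germ-like cells, 3 between pre-granulosa-like and epithelial-like cells, 4 between epithelial-like and stromal-like cells and 8 in endothelial-like cells, as before.

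Among the 4 epithelial-like clusters, Dlk1 was at 146 CPM in cluster 5, which had the most of the epithelial markers among its leading genes, and at 608 CPM in cluster 9, where Hand2 and Tagln were among the leading genes and which met the marker rule for both epithelial and stromal cells. Plagl1 was at 10.1 and 41.1 CPM in the same clusters. The 3 pre-granulosa-like clusters were alike in Dlk1 (37.0 to 51.2 CPM) and Peg3 (1772 to 1898 CPM). Plagl1 was at 16.8 CPM in cluster 3 against 8.28 and 6.81 CPM in clusters 0 and 1, but 2250 of the 2370 cells of cluster 3 came from lot 30, and cluster and lot cannot be told apart there.

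**Figure D5:**
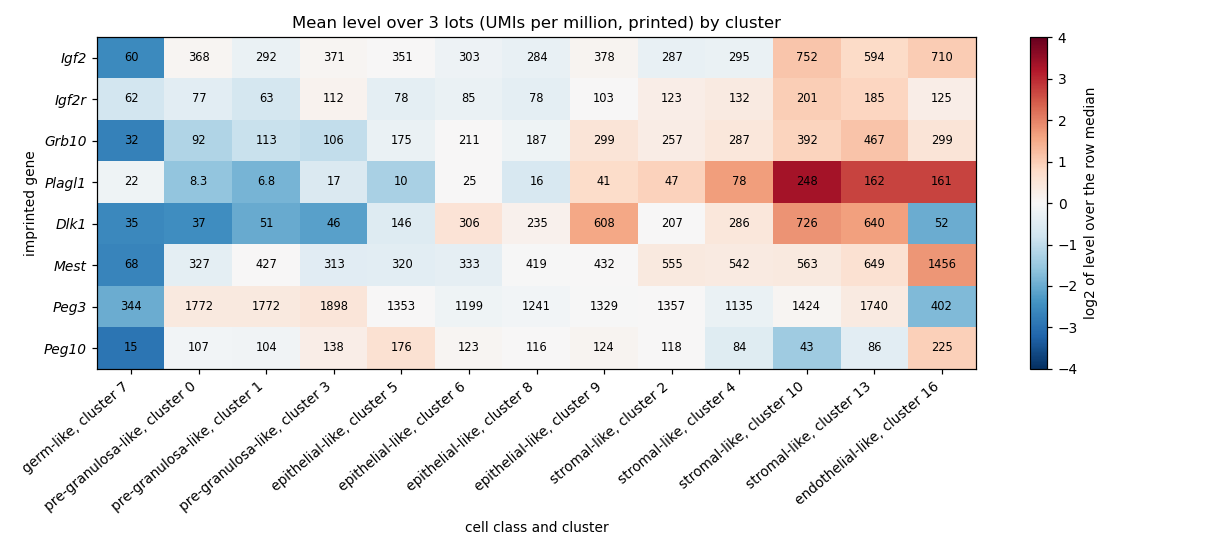
Rows are members and columns the clusters of 5 cell classes; each cell prints the mean level over 3 lots in CPM, and the color is log2 of that level over the median of its row. Plagl1, Dlk1, Igf2 and Grb10 are highest among the somatic classes in stromal-like clusters 10 and 13, and the germ-like column is the lowest of its row for every member but Plagl1.

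Endothelial-like cells, which line vessels, differed from the mean of the somatic classes, again taken over log levels, in all 8 members. In them 6 members were higher and 2 lower, where 41.1% of all genes were called (19.4% higher and 21.7% lower). The median log2 fold change was 0.85 over the members and -0.08 over all genes. Mest was at 1745, 1302 and 1320 CPM (log2 fold change 1.80 ± 0.18, adjusted p = 7.47e-09, edgeR), above every somatic value. Plagl1 was at 241, 89.2 and 153 CPM (2.72 ± 0.17, adjusted p = 5.51e-13), which overlapped the stromal-like range. Igf2 was at 833, 553 and 743 CPM (1.07 ± 0.13, adjusted p = 1.19e-07) and Peg10 at 222, 208 and 245 CPM (1.002 ± 0.16, adjusted p = 1.78e-05), both above every sum of the 3 somatic classes. Single clusters reached these levels: Igf2 was at 740 to 774 CPM in stromal-like cluster 10 and 443 to 559 CPM in unnamed cluster 11. Peg10 was at 249 to 331 CPM in cluster 11, above the endothelial-like range.

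Grb10 was higher by a log2 fold change of 0.70 ± 0.12 (adjusted p = 4.98e-05, edgeR). Its mean of 299 CPM was not above the 300.1 CPM of stromal-like cells, and the ranges of the lots overlapped. Igf2r was higher by 0.40 ± 0.15 (adjusted p = 0.0322, edgeR), a call that was lost under 6 alternatives. Its mean of 125 CPM lay below the 140 CPM of stromal-like cells, again with overlapping ranges. Dlk1 was lower, at 75.7, 36.2 and 44.3 CPM (-1.57 ± 0.19, adjusted p = 2.35e-07), and so was Peg3, at 446, 297 and 463 CPM (-1.83 ± 0.22, adjusted p = 1.60e-07, edgeR). The Dlk1 values overlapped those of pre-granulosa-like cells (41.96 to 44.7 CPM), while the Peg3 values lay below every sum of the 3 somatic classes. In endothelial-like cells the 3 marker shares added up to 22.0%, and the ratio to the carry-over level was 1.33 for Dlk1 and 1.26 for Peg3 but 16.9 for Mest and 19.8 for Plagl1. Scrublet called 13.6% to 21.8% of them doublets, and without those Peg3 was at 239 CPM and Dlk1 at 33.5 CPM.

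The imprinted genes outside the members again included both directions there: 3 of the 33 were higher and 7 lower, where 19.4% of all genes were higher and 21.7% lower. Asb4, a maternally expressed ubiquitin ligase subunit found in vessels (chr6:5383386-5433022), was at 109 ± 6.8 CPM in endothelial-like cells against 33.5, 13.3 and 3.64 CPM in stromal-like, epithelial-like and pre-granulosa-like cells (SD, n = 3; log2 fold change 3.22 ± 0.13, adjusted p = 3.64e-17, edgeR). Kcnq1 (1.95) and Gnas (1.48) were higher as well, and Dio3 (-2.58), Usp29 (-1.73) and Zim1 (-1.70) lower. Asb4 was also the gene with the largest negative log2 fold change among the 33 in pre-granulosa-like against stromal-like cells (-3.08), ahead of Rtl1 (-2.30) and Zdbf2 (-1.24), while Kcnq1 (2.62), Dio3 (1.87) and Nap1l5 (1.54) were higher there. In that comparison 12 of the 33 were higher and 9 lower, where 24.7% of all genes were higher and 24% lower.

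In pre-granulosa-like against epithelial-like cells 13 of the 33 were higher, with Kcnq1 (2.76), Magel2 (1.33) and Nap1l5 (1.203) leading, and 9 were lower, with Asb4 (-1.84), Ppp1r9a (-1.58) and Zdbf2 (-1.46) leading, where 22.8% of all genes were higher and 21.9% lower. In epithelial-like against stromal-like cells 3 were higher (Dio3, 2.23; Ppp1r9a, 1.90; Inpp5f, 0.31) and 7 lower, among them Asb4 (-1.24), Slc22a18 (-1.12) and Sfmbt2 (-1.08), where 14.6% of all genes were higher and 16.1% lower.

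Small classes extended the range of the members. In 42 neural-crest-like cells (9, 28 and 5 per lot, too few for a test) Dlk1 was at 1314, 2720 and 2415 CPM, above the stromal-like values, and Peg10 at 204, 627 and 600 CPM, while Plagl1 had no UMI in lot 30. In Sertoli-like cells Dlk1 was at 128, 123 and 133 CPM and Igf2 at 88.5, 79.8 and 51.7 CPM, with ratios to the carry-over level of 4.65 and 1.22. In macrophage-like cells the ratios were 0.77 to 1.49 for the 8 members, with Igf2 at 137, 121 and 107 CPM. That cluster was led by S100a8 and S100a9, with Camp, Ngp, C1qa, C1qb and C1qc also among its leading genes. It may thus not hold macrophages alone. In red-blood-cell-like cells Igf2r had no UMI in lot 26 and Igf2 was at 48.7, 34.5 and 74.4 CPM. Peg3 was at 200.1, 82.2 and 558 CPM there, the last above every germ-like value. These CPM are lowered by red blood cell markers, which took up 577515 to 821639 CPM in those cells over the lots. The somatic marker shares added up to 3.48% to 32.8% in them. The members together made up 0.28% of UMIs in pre-granulosa-like, 0.27% in epithelial-like, 0.32% in stromal-like, 0.34% in endothelial-like, 0.06% in germ-like, 0.40% in neural-crest-like and 0.63% in cells of unnamed cluster 12.

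Cluster 12 (718 cells, led by Lars2, Nfat5 and Ogt) had cells with a median of 0.24 times the median UMI count of their lot, and it stayed unnamed and untested. Igf2 was at 1131, 944 and 823 CPM there, a range that overlapped the endothelial-like one. Peg3 was at 3543, 3921 and 3514 CPM and Igf2r at 299, 338 and 317 CPM, above every value of the classes tested. Plagl1 (57.2 CPM) and Dlk1 (88.8 CPM) were below their stromal-like levels. The part of the low depth in these levels was not tested.

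Across single cells the members were weakly related. In thinned stromal-like cells (6256 over the lots) Spearman's rho was 0.26 for Igf2 with Plagl1 (0.24 to 0.28 over lots), 0.26 for Dlk1 with Plagl1 and 0.24 for Igf2 with Dlk1; in 344 endothelial-like cells it was 0.32 for Igf2 with Plagl1. In germ-like cells the largest was 0.23, for Peg3 with Mest. Such values describe cells that share a library and a cluster. Within stromal-like and within epithelial-like cells the counts of Dlk1 were the most uneven of the 8 members: in stromal-like cells they had a mean of 1.49 and a variance 3.03 times the mean, with no UMI in 43.8% of cells and 5 or more in 8.60%. Plagl1 had no UMI in 96.7% of pre-granulosa-like and 74.5% of stromal-like cells, and Peg3 in 1.56% and 5.96%.

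Over the 24 sums of class and lot, which share lots and classes, the members most alike in log2(CPM + 1) were Igf2 and Mest (Pearson's r 0.94) and the least alike Peg3 and Plagl1 (0.20). The nearest genes were sought among 8652 genes at a mean of 10 CPM or more, passing over those on the imprinted list. The genes most like Igf2 were Prkcdbp (0.95) and Tro (0.94), most like Mest were Lxn and Tro (both 0.96) and most like Dlk1 were Igfbp5 (0.95) and Gpc3 (0.93). Peg3 was most like Tulp2 (0.97) and Smarca1 (0.96), Grb10 like Ddah2 (0.97) and Serpinh1 (0.95) and Igf2r like BC030336 and Camsap2 (both 0.96). Plagl1 with Tmem255a (0.89) and Piezo2 (0.87) and Peg10 with Ece1 (0.90) and Ehd2 (0.89) had the lowest such values.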

How the data were processed

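UMI counts were deposited as 1 table of genes by barcodes for each of the 3 lots. Per the submitters' processing notes, the authors made these counts with UMI-tools, STAR 2.7 and featureCounts 2.0.1 on GRCm38. The lots held 126680758, 87494974 and 141920060 UMIs. Barcodes with 200 to 9000 genes and at most 10% mitochondrial UMIs were kept. Cells were clustered in Seurat 5.3.0 (2000 variable genes with 13 imprinted genes held out, 50 components, resolution 0.8) and named from marker lists, the highest score deciding, a requirement set after seeing the data. Doublets were called with Scrublet in scanpy 1.11.5 and kept, except in an alternative.

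Counts were summed per class and lot over 8 classes with at least 10 cells in every lot (24 sums) and tested with edgeR 4.0.16 in R 4.3.3: TMM, quasi-likelihood test, Benjamini-Hochberg adjustment over 13826 genes, threshold 0.05. Shares of cells were also taken after thinning each cell to 4000 UMIs. Simulated data for the germ-like comparison (12654 genes, 200 changed) gave 200 of 200 recovered and 4.31% false calls. There every sum was drawn independently at a fixed spread, without a lot effect, and few genes were changed. These rates need not hold for the data, where sums of 1 lot deviate together and most genes were called. The lots are pools of 1 condition, so p-values measure the spread between pools. The same pool gave every class of a lot, and the deviations of sums of 1 lot correlated over 0.1 in 30 of 30 pairs (median 0.32), so the lot pairs the sums, and the fit with the lot as a block is given where it changes a call. Alternatives were other scalings, no filter on low counts, DESeq2 1.42.0, each lot left out, other clusterings, a stricter cell filter, fewer classes in the fit and doublets left out.

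The members and gene lists were chosen with earlier results of these data known. Genes named are the members, the imprinted genes with the largest and smallest called changes (4 each way for germ-like cells, 3 each way otherwise), the 2 genes most like each member, and markers. Coordinates are from GENCODE on GRCm38.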

Additional observations from a re-analysis of the deposited data

How the results depend on the processing

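Of 600 values of single members under the alternatives, 547 kept their direction and side of the threshold, 30 gained a call, 14 lost one and 9 changed sign. In germ-like cells all 120 kept both, and 7 members were called under every alternative run. Igf2 in pre-granulosa-like against stromal-like cells, not called in any of these, changed sign to 0.018 with no filter on low counts, 0.057 at resolution 0.4, 0.033 at resolution 1.2, 0.050 with imprinted genes among the variable genes and 0.035 with the stricter cell filter. Peg3 in epithelial-like against stromal-like cells, not called either, changed sign to -0.036 with RLE size factors, -0.046 with library totals, -0.036 with DESeq2 and -0.0039 with imprinted genes among the variable genes. The cause was not tested.

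The number of members called in pre-granulosa-like against stromal-like cells rose from 4 to 7 with the lot as a replicate block and to 7 at resolution 1.2. In pre-granulosa-like against epithelial-like cells it rose from 3 to 5 with the block. The block changed 6 of 40 member values, all by adding a call. In epithelial-like against stromal-like cells the number was 4, and 1 to 5 when each lot was left out (2 without lot 26, 1 without lot 30), where fewer samples entered. All genes called there numbered 4241, against 7093 with the block, 2796 without lot 26 and 2530 without lot 30, and in endothelial-like cells 5679 against 3517 without lot 26. Endothelial-like cells numbered 87 to 174 per lot, which limits their precision.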
